A study of Arabidopsis thaliana with 48 samples.

Results

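The change of the auxin effect on root transcripts between 8 h and 24 h of treatment was examined in Arabidopsis thaliana seedlings. It rests on 12 of the 48 Affymetrix arrays of a time course, 3 in each of 4 groups. The groups were roots kept on medium with 1 µM indole-3-acetic acid (IAA, the main natural auxin) for 24 h, on control medium for 24 h, on IAA medium for 8 h and on control medium for 8 h. All seedlings were labelled as 6 days old, had grown in continuous white light on a nylon screen over sucrose medium, and were moved with it to either medium at the start. For each of 22746 probe sets, which are all but the 64 Affymetrix controls among 22810, the difference IAA minus control at 8 h was subtracted from the same difference at 24 h. This quantity, here called the interaction, is on the log2 scale and asks whether the response to auxin at 24 h was smaller than, equal in size to or larger than at 8 h. The RNA came from whole roots, so each value averages over all root cell types, and fewer cells of a type and less RNA per cell cannot be told apart.

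Auxin acts by promoting the breakdown of Aux/IAA proteins, repressors that hold back auxin response factors on the promoters of target genes. Among the targets are the Aux/IAA genes themselves and the GH3 genes, whose enzymes join IAA to amino acids and so remove it, which gives the pathway negative feedback. In roots the pathway is known for starting lateral roots, through transcription factors such as those of the LBD family, and for restraining elongation of the primary root.

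The RNA was labelled as root. Of 15 root markers 1 had a probe set paired with it alone, EXPA7, an expansin of root hairs, which averaged at percentile 76.8 over the 12 arrays. Of 16 shoot and photosynthesis markers 2 had one, LHCB4.1 of the light-harvesting antenna and the Rubisco activator RCA, at percentiles 54.9 and 56.2, so neither was at the bottom of the signal range. IAA 24 h replicate 2 stood apart: its root mean square distance from its group mean was 0.29 (log2), against 0.123 to 0.223 for the other 11 arrays. Counts of interactions and of fading and growing classes are given with and without it. Where a named interaction gained or lost its call without it, this is stated. Effects of single genes at 24 h include it. The lower quartile of the arrays lay between 6.11 and 6.29 (log2), which serves as a guide to background. A probe set was counted as called at a limma adjusted p under 0.05 over all 22746, and the labels do not say that the 3 replicates come from separate cultures, so these p-values measure the spread between these arrays. Gene names could be given to 59.4% of the probe sets, those that the platform annotation pairs with exactly 1 gene.

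Fewer probe sets were called between IAA and control at 24 h than at 8 h, and the response of single genes was smaller, larger or of opposite direction at the later time. IAA29, an Aux/IAA repressor, was 1.73-fold higher on IAA at 24 h and 6.34-fold higher at 8 h. In the other direction, SAG29, the sugar transporter SWEET15 that is known from senescing tissue, was 16.4-fold higher at 24 h and 2.36-fold higher at 8 h. On IAA 889 probe sets (3.91% of those tested) were higher and 883 (3.88%) lower at 24 h, together 7.79%, against 1821 (8.01%) higher and 1632 (7.17%) lower at 8 h, together 15.2%. Of these, 1129 were called at both times in the same direction, which is 63.7% of the calls at 24 h and 32.7% of the calls at 8 h, and 18 were called in opposite directions. A call at 1 time alone does not show a difference between the times.

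The test of the difference itself called 257 probe sets (1.13%), 98 above 0 (0.431%) and 159 below 0 (0.699%). At an unadjusted p under 0.05 there were 2456. The count was sensitive to single arrays. It was 468 without IAA 24 h replicate 2, of which 240 were shared with the 257, and the share above 0 became 55.1% in place of 38.1%. It dropped to 95 without IAA 24 h replicate 3 and to 131 without control 24 h replicate 3. At 8 h it became 151, 81 and 79 without IAA replicates 1, 2 and 3, and 82, 96 and 112 without control replicates 1, 2 and 3. With a whole replicate number left out it was 26 without number 1, 190 without number 2 and 0 without number 3, where 1623 probe sets had an unadjusted p under 0.05 and 3 residual degrees of freedom remained. Leaving out IAA 24 h replicate 3 gave 1086 calls at 24 h, leaving out control 24 h replicate 1 or 2 gave 1153 or 1117, and leaving out replicate number 1 or 3 gave 632 or 733. The calls at 8 h became 2189, 2207 and 2193 on leaving out IAA 8 h replicates 1, 2 and 3, 2269 on leaving out the second control array, and 1505 and 1592 on leaving out numbers 1 and 3.

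Called interactions were sorted by the effects at the 2 times. A fading rise was called higher on IAA at 8 h with an interaction below 0, and a fading fall was called lower at 8 h with an interaction above 0. Growing rises and falls were called at 24 h with an interaction in the direction of that effect. There were 127 fading rises, 56 fading falls, 48 growing rises and 44 growing falls, and 18 probe sets that turned from one direction to the other stand in a fading and a growing class. All 257 fell into at least 1 class. Held responses, called at both times in the same direction with no called interaction, numbered 510 rises and 557 falls. A missing call does not show that their effects were equal. The classes were chosen on these effects, so their medians at 8 h and 24 h describe them and are no test. Without IAA 24 h replicate 2 the fading rises numbered 175, fading falls 157, growing rises 114 and growing falls 46.

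**Figure D1:**
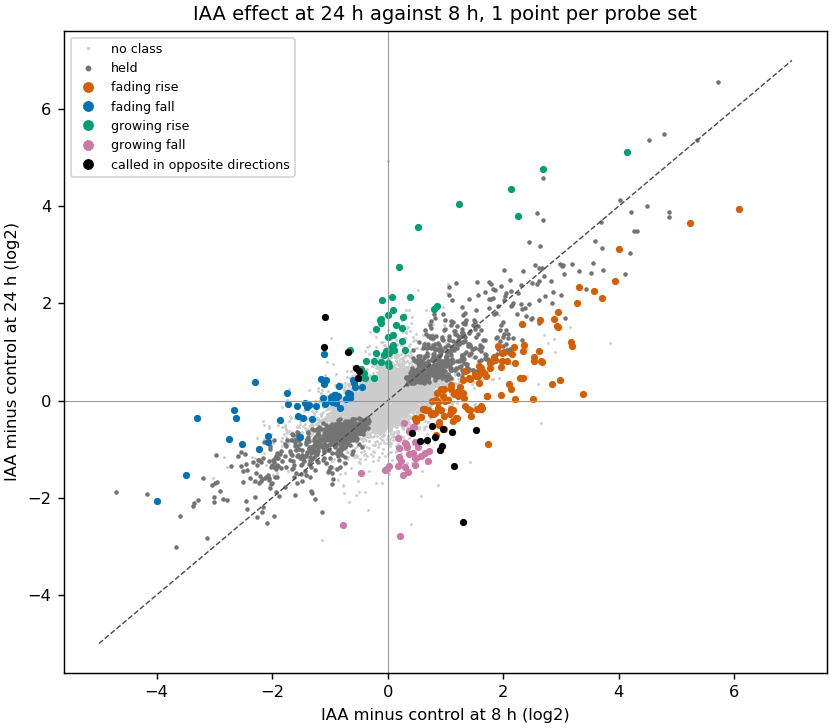
Log2 difference IAA minus control at 24 h (vertical axis) against the same difference at 8 h (horizontal axis), with 1 point per probe set, coloured by class, and a dashed line where both are equal. Fading rises lie right of the line and below it, with a median of 0.15 at 24 h and 1.51 at 8 h, while growing falls lie below 0 at 24 h with a median of -1.05.

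The fading rises had a median effect of 0.15 at 24 h and 1.51 at 8 h, and 46 of the 127 were still called higher on IAA at 24 h. IAA29 was the 1 of 7 measured Aux/IAA genes among them. Its log2 signal was 7.33, 6.86 and 6.62 on IAA at 24 h, 6.27, 6.20 and 5.99 on control at 24 h, 8.70, 8.99 and 8.83 on IAA at 8 h and 6.11, 6.17 and 6.25 on control at 8 h. All IAA arrays were above all control arrays at both times, and all IAA arrays of 24 h were below all IAA arrays of 8 h. The interaction was -1.87 ± 0.224 (log2, SE of the fit, n = 3 arrays in each group, limma adjusted p = 0.00455). The control means lay within the range of the lower quartiles, so the fold changes of IAA29 are not shown to be clear of background.

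GH3.3, one of the enzymes that couple amino acids to IAA, had the highest effect of all named genes at 8 h. Its log2 signal was 11.68, 11.92 and 10.56 on IAA at 24 h, 7.49, 7.48 and 7.38 on control at 24 h, 13.19, 13.64 and 13.73 on IAA at 8 h and 7.69, 7.70 and 6.91 on control at 8 h. IAA replicate 3 was the lowest of the 24 h IAA arrays and control replicate 3 the lowest of the 8 h control arrays, and no IAA array overlapped with a control array. The gene was 15.4-fold higher on IAA at 24 h and 67.8-fold higher at 8 h, with an interaction of -2.14 ± 0.377 (limma adjusted p = 0.0256). The call was lost in 7 of the 12 fits without 1 array, with adjusted p between 0.0532 and 0.078. These were the fits without control 24 h replicate 1 or 3, IAA 8 h replicate 2 or 3, or control 8 h replicate 1, 2 or 3. It was also lost in the fit over all 48 arrays, where the adjusted p was 0.209. It passed in 11 of 22 alternatives (0.0143 to 0.209).

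LBD29, a transcription factor of lateral root initiation, was at 10.72, 10.89 and 10.59 on IAA at 24 h and 6.88, 6.95 and 6.75 on control at 24 h, with 11.27, 11.81 and 11.87 on IAA at 8 h and 6.78, 6.67 and 6.86 on control at 8 h. The IAA arrays of 24 h were all below those of 8 h, while the control arrays overlapped. The interaction of -1.00 ± 0.211 missed the threshold (limma adjusted p = 0.0512). It passed without the replicate block (adjusted p = 0.0494), with a random block (0.0311), with a filter on low values (0.0474) and with an intensity trend (0.0402). It also passed without IAA 24 h replicate 2 (0.044) or IAA 8 h replicate 1 (0.0217). It did not pass with quantile normalization (0.0553), median centring (0.053), all 48 arrays (0.182) or in the other fits without an array or a replicate number, so 6 of 22 alternatives passed (0.0217 to 0.353).

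The peptide gene CLE44, whose product keeps vascular stem cells dividing, had 9.74, 9.63 and 9.51 on IAA at 24 h, 7.44, 7.14 and 7.29 on control at 24 h, 10.42, 10.75 and 10.53 on IAA at 8 h and 7.29, 7.48 and 6.98 on control at 8 h. All IAA arrays of 24 h lay between the control arrays and the IAA arrays of 8 h. The gene was 5.04-fold higher at 24 h and 9.95-fold higher at 8 h. Its interaction was -0.98 ± 0.195 (adjusted p = 0.0423), and the call was lost in all of the 12 single-array fits but those without control 24 h replicate 2 or IAA 8 h replicate 1 (0.0513 to 0.13), and over all 48 arrays (0.384). Of 22 alternatives 8 passed (0.0252 to 0.467). Among the loci without a symbol, AT1G10380 had 9.21, 9.24 and 9.19 on IAA at 24 h, 9.57, 9.32 and 9.27 on control at 24 h, 10.76, 10.98 and 10.77 on IAA at 8 h and 9.32, 9.32 and 9.24 on control at 8 h. The 3 IAA arrays of 8 h stood above the other 9, which lay within a narrow band, and the interaction was -1.72 ± 0.150 (adjusted p = 0.00106).

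AT4G17350 kept part of its rise, at 1.02 ± 0.157 (SE) at 24 h and 2.61 ± 0.157 at 8 h. AT2G03740 was at 0.23 ± 0.154 and did not pass at 24 h (adjusted p = 0.444), with 2.14 ± 0.154 at 8 h. AT3G51350 was at -0.32 ± 0.183 without passing at 24 h (adjusted p = 0.364), against 1.45 ± 0.183 at 8 h. The interactions of these 3 were -1.59, -1.90 and -1.77 (adjusted p = 0.00933, 0.00377 and 0.0119). At 24 h both IAA and control replicate 2 were the highest arrays of AT2G03740, with 7.23 and 6.66. Its IAA replicates 1 and 3 had 6.27 and 6.10 at 24 h, and its control means were 6.30 at 24 h and 6.32 at 8 h. These lay near the lower quartiles of the arrays, so the sizes of its effects are not shown to be clear of background. Among the other fading rises with a symbol, chosen after their values were seen, were the subtilase SBT4.12 and the calmodulin-binding family member IQD27, with interactions of -1.03 ± 0.196 and -1.01 ± 0.169 (adjusted p = 0.0372 and 0.0203). The call of SBT4.12 was lost in 10 of the single-array fits and that of IQD27 in 6.

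The fading falls were genes lower on IAA at 8 h that stood near the control level at 24 h, with a median effect of 0.04 at 24 h and -1.10 at 8 h. Only 8 of the 56 were still called lower at 24 h, and 6 were called higher. AT3G53980, which has no symbol in the annotation, had the largest interaction of the class. Its log2 signal was 12.77, 12.34 and 12.64 on IAA at 24 h, 12.96, 12.84 and 13.03 on control at 24 h, 9.50, 9.52 and 9.23 on IAA at 8 h and 12.58, 12.76 and 12.82 on control at 8 h. The 3 IAA arrays of 8 h lay far below all others, and the IAA arrays of 24 h overlapped with the control arrays of 8 h. They were below the control arrays of 24 h with no overlap, though the effect of -0.36 ± 0.136 at 24 h did not pass (limma adjusted p = 0.157). The interaction was 2.94 ± 0.193 (limma adjusted p = 0.000238).

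GSTU27, a tau-class glutathione transferase of the family that conjugates glutathione to foreign and reactive compounds, varied little within each group. It had 10.29, 10.40 and 10.29 on IAA at 24 h, 10.67, 10.74 and 10.52 on control at 24 h, 9.26, 9.28 and 9.27 on IAA at 8 h and 10.75, 10.79 and 10.92 on control at 8 h. At both times the IAA arrays were below the control arrays with no overlap, and those of 8 h were the lowest. The interaction was 1.24 ± 0.141 (adjusted p = 0.00377), and the remaining effect at 24 h of -0.32 ± 0.0995 did not pass (adjusted p = 0.085). GT72B1, the glycosyltransferase UGT72B1 that is known to attach glucose to phenolic and foreign compounds, was at -0.04 ± 0.122 at 24 h and -0.97 ± 0.122 at 8 h. Its interaction of 0.93 ± 0.173 (adjusted p = 0.0324) was lost in 9 of the single-array fits, the exceptions being those without IAA 24 h replicate 1 or 2 or control 24 h replicate 1, with adjusted p up to 0.108. It passed in 10 of 22 alternatives (0.0174 to 0.382).

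The other 5 named falls, AT4G30460, AT3G17110, AT3G27880, AT4G16190 and AT3G13980, had effects between -0.11 and -0.0016 at 24 h and between -1.73 and -0.98 at 8 h. Their interactions ran from 0.98 ± 0.127 for AT3G13980 to 1.65 ± 0.249 for AT4G30460 (adjusted p between 0.00377 and 0.0136). AT4G16190 showed the pattern at a high signal, with 12.03, 12.21 and 12.31 on IAA at 24 h, 12.21, 12.29 and 12.37 on control at 24 h, 10.84, 10.99 and 11.13 on IAA at 8 h and 12.18, 12.13 and 12.39 on control at 8 h. Its 24 h groups overlapped, and its IAA arrays of 8 h were below all 9 other arrays. Of the fading falls with a symbol chosen after their values were seen, the methionine sulfoxide reductase MSRB9 stood at -0.85 at 24 h and -2.07 at 8 h and the cation exchanger CHX16 at -0.76 and -1.51. The light-harvesting-like gene LIL3:2 stood at 0.13 and -0.66. Their adjusted p values were 0.0398, 0.0464 and 0.0447, and the calls were lost in 9, 10 and 11 single-array fits.

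**Figure D2:**
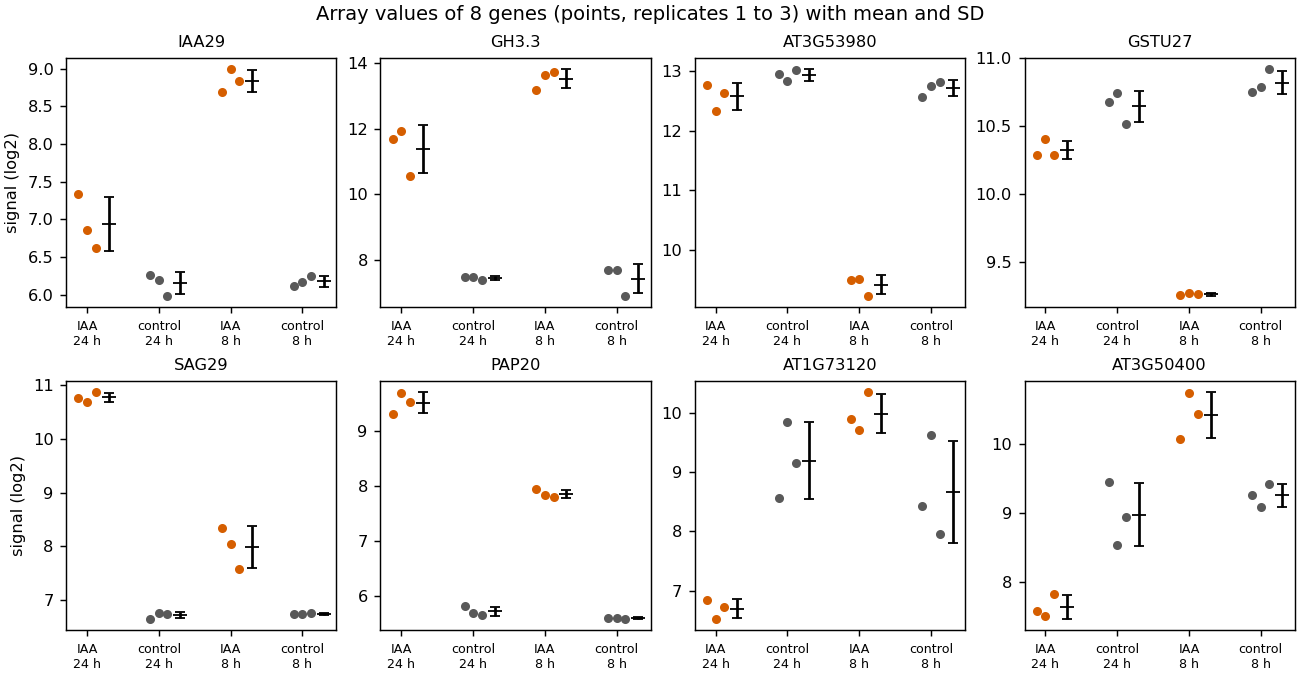
Log2 signal of 8 genes on each of the 12 arrays (orange, IAA; grey, control; replicates 1 to 3 from left to right), with the mean and SD of each group (n = 3) in black; the vertical axes differ between genes and do not start at 0. On IAA, IAA29 and GH3.3 were lower at 24 h than at 8 h, AT3G53980 and GSTU27 were back near the control arrays at 24 h, SAG29 and PAP20 were higher at 24 h, and AT1G73120 and AT3G50400 were below the control arrays at 24 h and above them at 8 h.

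The growing rises had a median effect of 1.27 at 24 h and 0.01 at 8 h, and 7 of the 48 were already called higher on IAA at 8 h. SAG29 had the largest interaction among those with a gene name. Its log2 signal was 10.75, 10.68 and 10.86 on IAA at 24 h, 6.66, 6.77 and 6.75 on control at 24 h, 8.34, 8.05 and 7.58 on IAA at 8 h and 6.74, 6.75 and 6.76 on control at 8 h. The IAA arrays of 24 h lay above those of 8 h, which lay above all 6 control arrays, and the control arrays of both times overlapped. The interaction was 2.80 ± 0.222 (limma adjusted p = 0.000888).

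PAP20, a member of the purple acid phosphatases, which release phosphate from organic compounds, was higher on IAA at both times. It had 9.33, 9.70 and 9.53 on IAA at 24 h, 5.81, 5.69 and 5.66 on control at 24 h, 7.95, 7.84 and 7.80 on IAA at 8 h and 5.60, 5.61 and 5.59 on control at 8 h. The 3 IAA arrays of 24 h were above those of 8 h, with no overlap between media. The gene was 13.9-fold higher at 24 h and 4.8-fold higher at 8 h, and the interaction was 1.54 ± 0.160 (adjusted p = 0.00263). All 6 control arrays lay under the lowest array quartile of 6.11, so these fold changes rest on control values not shown to lie above background.

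AT3G05180, AT2G23960 and AT2G16890 rose at 24 h without a called effect at 8 h. AT3G05180 averaged 7.98 ± 0.50 on IAA and 6.32 ± 0.21 on control at 24 h, with 6.35 ± 0.09 on IAA and 6.49 ± 0.13 on control at 8 h (log2, SD, n = 3). AT2G23960 averaged 8.75 ± 0.47 on IAA and 7.27 ± 0.12 on control at 24 h, with 6.97 ± 0.16 and 7.18 ± 0.12 at 8 h. In both, IAA 24 h replicate 2 was the lowest of its group, at 7.43 and 8.21, and still above all control arrays. The interactions of the 3 genes were 1.80 ± 0.253, 1.69 ± 0.203 and 1.21 ± 0.176 (adjusted p = 0.00943, 0.00455 and 0.0121). That of AT2G16890 did not pass over all 48 arrays (adjusted p = 0.151). Growing rises with a symbol, chosen after their values were seen, were the carboxypeptidase-like gene scpl48 (1.73 at 24 h, 0.26 at 8 h, adjusted p = 0.0159), the subtilase SBT1.3 (0.94 and -0.07, 0.0461) and the actin-binding family member NET4B (0.70 and 0.03, 0.0405). Their calls were lost in 2, 11 and 11 of the single-array fits.

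The growing falls were lower on IAA at 24 h and included genes that were higher at 8 h. Their median effect was -1.05 at 24 h and 0.44 at 8 h, 12 of the 44 were called higher on IAA at 8 h and 1 was called lower then. AT1G73120 had the largest interaction of all named genes. Its log2 signal was 6.84, 6.53 and 6.72 on IAA at 24 h, 8.57, 9.85 and 9.16 on control at 24 h, 9.90, 9.71 and 10.34 on IAA at 8 h and 8.44, 9.62 and 7.95 on control at 8 h. All IAA arrays of 24 h were below every other array, and the IAA arrays of 8 h were above all control arrays of 8 h, though control 8 h replicate 2 came close. The effect was -2.49 ± 0.362 at 24 h and 1.31 ± 0.362 at 8 h (adjusted p = 0.00174 and 0.0324), and the interaction -3.80 ± 0.512 (adjusted p = 0.00806).

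AT3G50400 turned in the same way. It had 7.59, 7.50 and 7.83 on IAA at 24 h, 9.45, 8.54 and 8.95 on control at 24 h, 10.07, 10.73 and 10.44 on IAA at 8 h and 9.26, 9.09 and 9.43 on control at 8 h. The IAA arrays were below all control arrays at 24 h and above all control arrays at 8 h. The interaction was -2.49 ± 0.311 (adjusted p = 0.0055). AT3G20340 was at -0.64 ± 0.149 at 24 h and 1.11 ± 0.149 at 8 h, with an interaction of -1.75 ± 0.210 (adjusted p = 0.00455, and 0.0674 over all 48 arrays). Of its change, -1.33 came from IAA medium and 0.42 from control medium.

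AT1G74460 and AT5G12420 were lower at 24 h without a called effect at 8 h. AT1G74460 had 9.52, 9.76 and 9.86 on IAA at 24 h, 11.41, 10.92 and 10.75 on control at 24 h, 11.68, 11.98 and 11.70 on IAA at 8 h and 11.13, 11.46 and 11.35 on control at 8 h. Its groups did not overlap at either time, although its effect of 0.47 ± 0.174 at 8 h did not pass (adjusted p = 0.0967). The interactions were -1.79 ± 0.245 for AT1G74460 and -1.65 ± 0.216 for AT5G12420 (adjusted p = 0.00866 and 0.00681). In all, 12 probe sets were called lower at 24 h and higher at 8 h, and 6 were called higher at 24 h and lower at 8 h.

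AT3G11930 was the 1 named gene among these 6. It had 10.64, 10.70 and 10.88 on IAA at 24 h, 10.29, 10.24 and 9.83 on control at 24 h, 9.61, 9.65 and 9.74 on IAA at 8 h and 10.14, 10.17 and 10.18 on control at 8 h. The IAA arrays were above all control arrays at 24 h and below them at 8 h. The interaction of 1.12 ± 0.187 (adjusted p = 0.0203) was lost in 7 single-array fits, those without any 1 of the 6 arrays of 8 h or without IAA 24 h replicate 3 (0.0532 to 0.0658). It passed in 12 of 22 alternatives (0.00755 to 0.213).

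Without replicate number 3, 0 of the 26 named genes with a called interaction passed in limma and all 26 had an unadjusted p under 0.05, with adjusted p between 0.0543, for AT3G53980 and SAG29, and 0.467. Without number 1, 7 passed, namely AT3G50400, IAA29, AT1G10380, AT4G17350, AT3G53980, SAG29 and PAP20, with adjusted p between 0.0142 and 0.192 over the 26. Without number 2, 21 passed, and GH3.3 (adjusted p = 0.0657), AT4G17350 (0.0524), AT3G11930 (0.0828), GT72B1 (0.106) and CLE44 (0.0524) did not. These fits keep 8 arrays and 3 residual degrees of freedom.

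The interaction is the change from 8 h to 24 h on IAA medium minus the change on control medium, so it can be read as these 2 parts. With limma 1761 of 22746 probe sets were called between 24 h and 8 h on IAA medium (7.74%), and 1 on control medium (0.00440%). Over the 257 probe sets the median absolute change was 1.27 on IAA medium and 0.108 on control medium, and the part on IAA medium was the larger one in 254. For SAG29 the parts were 2.78 on IAA and -0.02 on control medium, for IAA29 -1.90 and -0.03, and for AT3G53980 3.17 and 0.22. AT1G73120 had -3.28 on IAA medium and 0.52 on control medium.

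**Figure D3:**
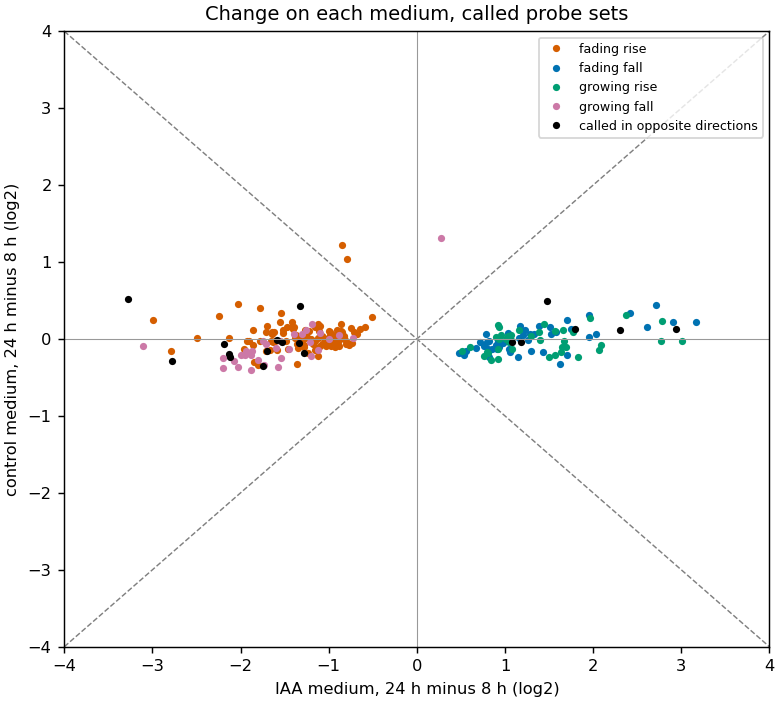
Log2 change from 8 h to 24 h on IAA medium (horizontal axis) and on control medium (vertical axis) for the 257 probe sets with a called interaction, coloured by class; on the dashed diagonals both changes are equal in size. The points spread along the horizontal axis, with a median absolute change of 1.27 on IAA medium and 0.108 on control medium.

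The arrays of the other times took no part in the classes and show where the responses lay before and between. The fading rises had median effects of 0.16 at 0.5 h, 0.45 at 1 h, 0.76 at 2 h, 1.43 at 4 h, 1.51 at 8 h, 1.06 at 12 h and 0.15 at 24 h. The fading falls were at -0.98 at 4 h, -1.10 at 8 h, -0.69 at 12 h and 0.04 at 24 h. Growing rises stayed between -0.19 and 0.01 from 0.5 to 8 h and were at 0.38 at 12 h and 1.27 at 24 h. The growing falls ran from -0.33 at 1 and 2 h through 0.07 at 4 h and 0.44 at 8 h to 0.14 at 12 h and -1.05 at 24 h. Held rises were at 1.00 at 8 h, 1.02 at 12 h and 0.89 at 24 h, and held falls at -0.94, -0.88 and -0.77.

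At 4 h, 107 of the 127 fading rises were called higher on IAA in the fit over all 48 arrays (12.2% of all probe sets), and 44 of the 56 fading falls were called lower (9.31%). By 12 h these numbers were 93 higher (7.88% of all) and 37 lower (6.83%), and 24 of the 48 growing rises were called higher. Of the 44 growing falls, 5 were called higher and 4 lower at 12 h. Held responses were called at 12 h in 449 of 510 rises and 443 of 557 falls.

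At 12 h the effect lay between those of 8 h and 24 h in 116 of 127 fading rises, 48 of 56 fading falls, 45 of 48 growing rises and 36 of 44 growing falls. The classes were chosen for a called difference between 8 h and 24 h, so a 12 h effect between them is favoured by that choice. The median share of the change completed by 12 h, measured between the same chosen ends, was 35%, 37.7%, 41.1% and 23.5% in these classes. Single genes differed in this. AT2G03740 was at 2.31 at 4 h, 2.14 at 8 h, 0.27 at 12 h and 0.23 at 24 h, so most of its change fell before 12 h. AT1G10380 was at 1.48, 1.55, 1.24 and -0.17 at these times, with most of its change after 12 h. IAA29 was at 1.69 at 0.5 h, 3.12 at 2 h, 2.66 at 8 h, 2.04 at 12 h and 0.79 at 24 h. SAG29 had 0.03 at 4 h, 1.24 at 8 h, 2.24 at 12 h and 4.04 at 24 h, and PAP20 had 0.40, 2.26, 3.50 and 3.80.

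**Figure D4:**
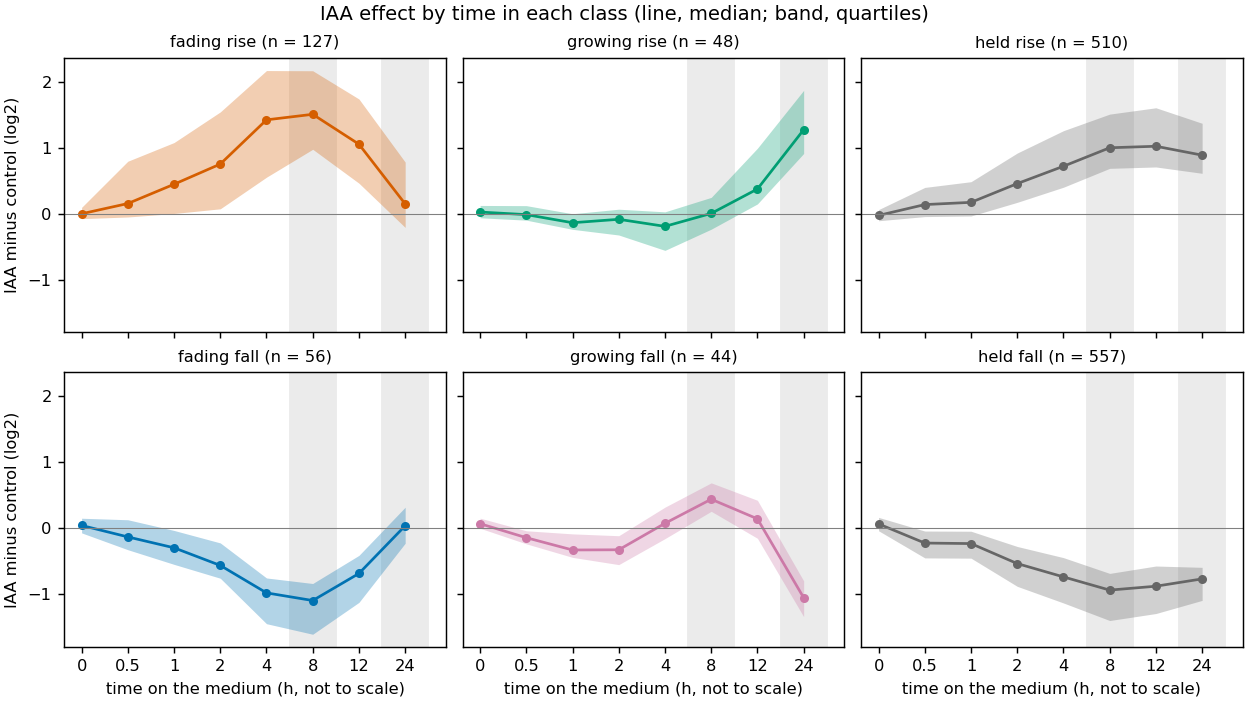
Log2 difference IAA minus control over the 8 times (0 to 24 h, spaced evenly and not to scale) in 6 classes; lines join class medians, coloured bands run from the lower to the upper quartile over probe sets, and grey stripes mark 8 h and 24 h, whose arrays chose the classes. Fading rises were at 1.06 at 12 h, between 1.51 at 8 h and 0.15 at 24 h, and growing falls stood above 0 at 8 h (0.44) and below it at 24 h (-1.05).

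Responses chosen for their size at 8 h are smaller elsewhere in part by that choice, so probe sets were also chosen on the arrays of 4 h, which are in neither time of the comparison (adjusted p under 0.05 and a fold of at least 2). The 474 rises chosen at 4 h had a median effect of 1.29 at 8 h, 1.08 at 12 h and 0.62 at 24 h. At 24 h the medians were 0.76, 0.63 and 0.56 in replicates 1, 2 and 3, against 1.17, 1.38 and 1.36 at 8 h. Every replicate was thus lower at 24 h than all 3 at 8 h. The 442 falls chosen at 4 h had -1.26 at 8 h, -1.00 at 12 h and -0.71 at 24 h, and -0.68, -0.84 and -0.46 in the replicates at 24 h against -1.23, -1.32 and -1.29 at 8 h.

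Probe sets were chosen on the 12 h arrays in the same way. Their 441 rises were at 1.45 at 8 h and 1.09 at 24 h, with 1.18, 0.98 and 1.16 in replicates 1, 2 and 3 at 24 h against 1.41, 1.57 and 1.47 at 8 h. The 425 falls were at -1.39 at 8 h and -0.88 at 24 h, with -0.96, -0.99 and -0.66 in the replicates at 24 h against -1.41, -1.40 and -1.39 at 8 h. Both choices gave smaller median effects at 24 h than at 8 h in each replicate and direction. These are medians over probe sets of the same arrays and carry no test. Both times of choice lie nearer to 8 h than to 24 h, and responses that arise only after the time of choice are left out. Smaller medians at 24 h can follow from this alone, so they do not show that the response to auxin as a whole faded.

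**Figure D5:**
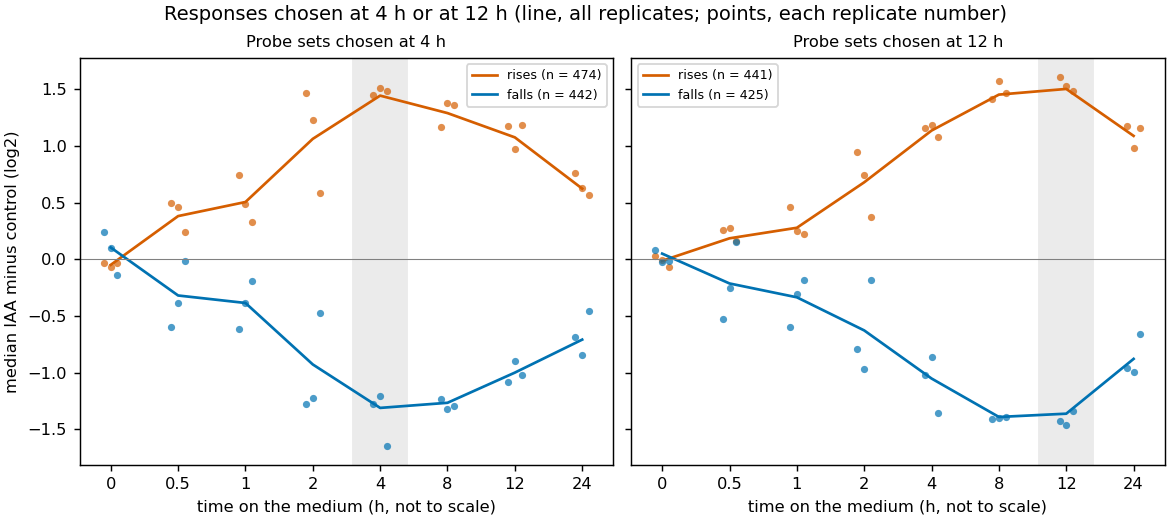
Median log2 difference IAA minus control over the 8 times (spaced evenly and not to scale) of probe sets chosen at 4 h (left) or at 12 h (right), grey stripes marking the time of choice; lines use all replicates and points are replicate numbers 1 to 3. Rises chosen at 4 h were at 1.29 at 8 h and 0.62 at 24 h, and those chosen at 12 h at 1.45 and 1.09.

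The held rises had a median effect of 0.89 at 24 h and 1.00 at 8 h, and the held falls -0.77 at 24 h and -0.94 at 8 h. PR-1-LIKE, named for its likeness to a defence protein, was 94.7-fold higher on IAA at 24 h and 52.7-fold higher at 8 h. It had 13.33, 13.49 and 13.74 on IAA at 24 h, 7.20, 6.77 and 6.89 on control at 24 h, 12.97, 13.28 and 13.33 on IAA at 8 h and 7.06, 7.73 and 7.63 on control at 8 h. The IAA arrays of both times stood far above all control arrays, and the control arrays of 24 h overlapped with those of 8 h. Its interaction of 0.85 ± 0.248 did not pass (limma adjusted p = 0.176), and did in 1 of 22 alternatives, without control 24 h replicate 1 (adjusted p = 0.0228, range 0.0228 to 0.77). WES1, the IAA-conjugating enzyme GH3.5, was at 4.01 ± 0.171 at 24 h and 4.49 ± 0.171 at 8 h, with an interaction of -0.48 ± 0.242 (adjusted p = 0.53).

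AT2G19970 was at 5.37 ± 0.233 at 24 h and 4.53 ± 0.233 at 8 h, and AT1G67750 at 4.14 ± 0.149 at 24 h and 4.02 ± 0.149 at 8 h. AT5G14650 was at 3.89 ± 0.405 at 24 h and 4.21 ± 0.405 at 8 h. In AT5G14650, IAA 24 h replicate 2 had 8.34 against 10.56 and 10.58 in the other 2 arrays of its group, and the control means of 5.94 and 5.74 were under the lowest of the array quartiles. Its interaction was 0.15, -1.44 and 0.34 within replicates 1, 2 and 3. The named held falls were AT2G41730 (-3.02 at 24 h, -3.66 at 8 h), AT2G21640 (-2.83, -3.13), AT4G25250 (-2.37, -3.59), AT5G43450 (-2.24, -2.44) and AT3G45710 (-2.19, -2.15). The probe set of AT2G41730 is of the x_at type, and cross-hybridisation with other transcripts was not tested.

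In 3 of these falls IAA 24 h replicate 2 was far from the other arrays of its group. AT2G41730 had 7.42, 11.41 and 7.50 on IAA at 24 h and 11.66, 11.88 and 11.86 on control at 24 h, so the IAA value of replicate 2 was close to the control arrays. AT2G21640 had 6.64, 9.28 and 6.49 on IAA and 9.97, 10.08 and 10.87 on control at 24 h, and AT5G43450 had 6.82, 9.01 and 7.06 on IAA and 9.65, 9.80 and 10.16 on control at 24 h. The effects given for these 3 at 24 h include that array. At 8 h control replicate 3 was the lowest of its group in these 3 genes. It had 10.47 against 12.12 and 11.68 in replicates 1 and 2 for AT2G41730, and 9.18 against 10.99 and 10.41 for AT2G21640. For AT5G43450 it had 8.39 against 10.41 and 9.84, and the effects at 8 h include it. Within replicates 1, 2 and 3 the interaction of AT2G41730 was 0.02, 3.42 and -1.51. That of AT2G21640 was 0.45, 2.59 and -2.15, and that of AT5G43450 0.50, 1.92 and -1.83. The direction of the difference between the times thus varied between replicates, and smaller falls at 24 h are not shown. The interaction of AT4G25250 was 1.23 ± 0.511 (adjusted p = 0.402), and without IAA 24 h replicate 2 it was 1.75 (adjusted p = 0.0419), so its fall was then called as fading. That was the 1 of 22 alternatives that passed (0.0419 to 0.822). The mean of its IAA arrays at 8 h, 6.12 ± 0.62, lay within the range of the lower quartiles.

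Across 47 lists of pathways, families and markers with 1900 entries, 252 genes were paired alone with a probe set by the annotation. It listed no gene for 8730 of the tested probe sets, so an unmeasured member need not be missing from the array. Of the 252 genes, 6 had a called interaction (2.38%, against 1.13% of all probe sets). Each of the 6 stands alone in its list. In auxin signalling and conjugation, IAA29 was called among 7 measured Aux/IAA genes, of which IAA18 (0.86 at 24 h, 1.70 at 8 h) and IAA30 (0.94, 1.29) were called higher at both times. IAA18 had an interaction of -0.84 ± 0.227 that did not pass (adjusted p = 0.134). Among 5 measured GH3 genes, 4 were called higher on IAA at both times and GH3.3 alone had a called interaction. Over all probe sets 3.91% were called higher at 24 h and 8.01% at 8 h, and no test sets the Aux/IAA or GH3 genes apart. GH3.1 was at 2.60 at 24 h and 4.12 at 8 h (interaction -1.52 ± 0.491, adjusted p = 0.236), and GH3.17 at 1.3 at 24 h and 1.24 at 8 h. The control means of GH3.1, 6.29 at 24 h and 6.23 at 8 h, lay within the range of the lower quartiles, so its size is not shown to be clear of background. Its effects are also the medians of the 5 GH3 genes. The median effect was 0.20 at both times for the 7 Aux/IAA genes, against -0.02 and -0.01 for all probe sets. These medians belong to different genes, IAA34 at 24 h and IAA20 at 8 h, and do not show an unchanged family. The median interaction of the 7 was -0.396, with a range of -1.87 to 0.166, against -0.0133 for all probe sets.

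Of 5 lateral root factors none had a called interaction in limma with all 12 arrays, and 2 had an unadjusted p under 0.05 (40.0%, against 10.8% of all probe sets). LBD29 was called higher on IAA at 24 h, and LBD29, LBD16, PUCHI and CR4 were called higher at 8 h. Over all probe sets 3.91% were called higher at 24 h and 8.01% at 8 h, so fewer calls at the later time were general. PUCHI, a transcription factor of the early lateral root primordium, had 7.24, 8.12 and 7.28 on IAA at 24 h, 7.17, 6.73 and 6.94 on control at 24 h, 8.57, 8.76 and 8.75 on IAA at 8 h and 7.02, 6.90 and 6.93 on control at 8 h. IAA 24 h replicate 2 was the highest of its group, and the other 2 were close to the control arrays. With all arrays the interaction was -1.14 ± 0.292 and did not pass (limma adjusted p = 0.112). Without IAA 24 h replicate 2 it was -1.47 and passed (0.00386), and it also passed without replicate number 2 (0.0214), the 2 of 22 alternatives that did (0.00386 to 0.676). LBD16 was at 0.60 at 24 h and 1.09 at 8 h (interaction -0.49 ± 0.318, adjusted p = 0.676).

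Of 46 measured genes in 6 lists of cell wall genes, 0 had a called interaction in limma with all 12 arrays, and 8 had an unadjusted p under 0.05 (17.4%, against 10.8% of all probe sets). EXPB2, a beta-expansin that loosens walls, had 11.36, 9.77 and 11.64 on IAA at 24 h, 6.15, 6.61 and 6.26 on control at 24 h, 9.29, 9.05 and 8.84 on IAA at 8 h and 6.33, 6.31 and 6.46 on control at 8 h. All IAA arrays were above all control arrays, and all IAA arrays of 24 h above those of 8 h, with replicate 2 the lowest of its group. Its interaction was 1.89 ± 0.500 (adjusted p = 0.125), and 2.50 without IAA 24 h replicate 2 (0.000952), 2.63 without replicate number 2 (0.00652) and called over all 48 arrays (0.00189). These were the 3 of 22 alternatives that passed (0.000952 to 0.716). EXPB1, its relative, was at -1.45 at 24 h and -2.51 at 8 h (interaction 1.07 ± 0.238, adjusted p = 0.0671). XTH32, of the enzymes that cut and rejoin xyloglucan, was at -0.13 at 24 h and -1.12 at 8 h (interaction 0.98 ± 0.221, adjusted p = 0.0696). It passed in 2 of 22 alternatives, without IAA 24 h replicate 2 (0.0234) and over all 48 arrays (0.0464), with a range of 0.0234 to 0.357. Of 19 expansins, 2 were higher and 2 lower on IAA at 24 h, against 3 higher and 5 lower at 8 h, and of 10 XTHs 1 was higher and 2 lower at 24 h, against 1 and 3 at 8 h. Over all probe sets 3.91% were higher and 3.88% lower at 24 h, against 8.01% and 7.17% at 8 h, so fewer calls at the later time were general and no test sets these families apart.

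Calls among enzymes that act on small molecules are to be read against all probe sets, of which 3.88% were lower on IAA at 24 h and 7.17% at 8 h, and no test sets these families apart. Of 11 measured tau glutathione transferases, 1 was lower on IAA at 24 h and 6 at 8 h, with a list median of -0.32 at 24 h and -0.84 at 8 h. GSTU27 was the 1 with a called interaction. GSTU28 was at -0.51 at 24 h and -1.90 at 8 h (interaction 1.39 ± 0.303, adjusted p = 0.0594), and GSTU25 at -1.17 at 24 h and -2.60 at 8 h (interaction 1.44 ± 0.467, adjusted p = 0.239). Family members are alike in sequence, and cross-hybridisation between their probes was not tested. Of 52 UGT glycosyltransferases, 3 were higher and 5 lower at 24 h, against 2 higher and 16 lower at 8 h, with medians of -0.12 and -0.34 and GT72B1 the 1 called. IAGLU, which attaches glucose to IAA, was at -0.29 at 24 h and -1.28 at 8 h (interaction 0.98 ± 0.365, adjusted p = 0.323). Of 251 cytochrome P450s in the list 23 were measured, most of them CYP71B genes, so they do not stand for the family. Of these 23, 1 was higher and 3 lower at 24 h and 4 were lower at 8 h. Of 22 beta-glucosidases 1 was higher at 24 h, against 1 higher and 4 lower at 8 h. CYP71B26 was at -0.59 at 24 h and -1.30 at 8 h (interaction 0.72 ± 0.151, adjusted p = 0.0512), and BGLU44 at 0.22 at 24 h and -1.15 at 8 h (interaction 1.36 ± 0.334, adjusted p = 0.0971).

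Among 17 genes of the list of SWEET and sugar transporters, 3 were higher and 1 lower on IAA at 24 h, against 1 higher and 3 lower at 8 h (all probe sets, 3.91% and 3.88% at 24 h, 8.01% and 7.17% at 8 h). SAG29 was the 1 with a called interaction. SWEET2, a sugar transporter of the vacuole membrane, was at 1.15 at 24 h and -0.06 at 8 h, and its interaction of 1.21 ± 0.253 just missed the threshold (adjusted p = 0.0511). SWEET13 and SWEET14, sucrose exporters, were at -0.53 and -1.34 at 24 h and at -1.34 and -2.00 at 8 h. Of 6 CLE peptide genes CLE44 was called, and CLE41, which encodes the same signal peptide, was at 0.07 at 24 h and -0.57 at 8 h (interaction 0.64 ± 0.232, adjusted p = 0.309). In another 23 lists with 109 measured members limma called 0 interactions with all 12 arrays, and 16 members had an unadjusted p under 0.05 (14.7%, against 10.8% of all). A further 11 lists, among them those of MYB and NAC factors, had no member that the annotation pairs alone with a probe set. Their members may be among the probe sets without a gene name, so these lists were not assessed. Of the members of these 23 lists, TUB1, a beta-tubulin, was at -1.05 at 24 h and -1.49 at 8 h (interaction 0.44 ± 0.413, adjusted p = 0.801), and passed in 1 of 22 alternatives, without IAA 24 h replicate 2 (0.0187, range 0.0187 to 0.989). UGT78D1 of flavonoid glycosylation, also in the list of UGTs, was at 0.51 at 24 h and -0.16 at 8 h (interaction 0.67 ± 0.174, adjusted p = 0.121), and passed in 1 of 22 alternatives, without control 24 h replicate 1 (0.0469, range 0.0469 to 0.676). BHLH101, of the iron deficiency response, was at -2.29 at 24 h and -1.14 at 8 h (interaction -1.15 ± 0.338, adjusted p = 0.179). RCA, the shoot marker, was at 0.67 at 24 h and -0.20 at 8 h (interaction 0.87 ± 0.311, adjusted p = 0.301), and whether shoot tissue in the samples bears on any result was not tested.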

How the data were processed

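Log2 signals of 48 Affymetrix arrays, 3 in each of 16 groups, were used as the authors deposited them in 1 table. The normalization and the summary of probes into probe sets are not given in the sources used here. The log2 scale was read from the values of the deposited table. Read depth does not apply, and 3 arrays per group limit the precision. Groups and replicate numbers came from the labels.

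The 12 arrays of IAA and control at 24 h and 8 h were fitted with limma 3.58.1 (R 4.3.3), with 4 group means and the replicate number as a fixed block. Tests were two-sided, with Benjamini-Hochberg adjustment across the 22746 probe sets. Times outside the comparison were fitted over all 48 arrays. Probe sets chosen at 4 h or 12 h came from limma on the 6 arrays of that time. The fit was tested on simulated data. SE are those of the fit.

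Genes were named from probe sets paired with 1 gene, with the highest mean where a gene had several. GH3.3 and LBD29 were named as a check of the labels. Next came up to 8 fading rises, 8 fading falls, 6 growing rises, 6 growing falls and 2 reversals in each direction with the largest interactions. These had the same sign in all 3 replicate numbers and stayed called without any 1 array, a condition dropped where under 50% of the places were filled. Up to 5 held rises and 5 held falls followed, and from each of 47 lists up to 3 called members or the 1 with the largest interaction. Growing falls and reversals overlap with fading classes, so a gene can stand under both. The comparison, members and lists were chosen with earlier results of these data known. Genes were matched to lists by locus, symbol or synonym, and 14 matches with another symbol were dropped. Alternatives were quantile normalization, median centring, a mean log2 of at least 6.5, no or a random block, all 48 arrays, an intensity trend with robust estimation, a fold of at least 2, the 100 largest choices, and leaving out each array or replicate number. Sequences were not used here.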

Additional observations from a re-analysis of the deposited data

Results flagged for a closer look

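The IAA effect differed between 24 h and 8 h by the interaction test in 257 probe sets. Among the named genes the difference of the log2 effect, 24 h minus 8 h, was below 0 for AT1G73120 (-3.80), AT3G50400 (-2.49), GH3.3 (-2.14), AT2G03740 (-1.90), IAA29 (-1.87), AT1G74460 (-1.79), AT3G51350 (-1.77), AT3G20340 (-1.75), AT1G10380 (-1.72), AT5G12420 (-1.65), AT4G17350 (-1.59) and CLE44 (-0.98). It was above 0 for AT3G53980 (2.94), SAG29 (2.80), AT3G05180 (1.80), AT2G23960 (1.69), AT4G30460 (1.65), PAP20 (1.54), AT3G17110 (1.45), AT3G27880 (1.27), GSTU27 (1.24), AT2G16890 (1.21), AT4G16190 (1.14), AT3G11930 (1.12), AT3G13980 (0.98) and GT72B1 (0.93). Staying called without any 1 array was a condition for naming 22 of these 26 genes, so it is no sign of stability. Over all 257 calls, 62 stayed called in every such fit.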

How the results depend on the processing

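The 257 interaction calls became 261 with quantile normalization, 265 with median centring, 257 with the filter on low values, 302 with a random block and 279 with an intensity trend, and no called value of a named gene changed sign under any alternative. Over all 48 arrays there were 419 calls, 159 above 0 and 260 below 0, of which 196 were shared, with 209 fading rises, 84 growing rises and 73 growing falls. A fold of at least 2 left 573 calls at 24 h and 936 at 8 h, 77 fading rises, 29 fading falls, 28 growing rises, 24 growing falls, 188 held rises and 151 held falls. With the 100 largest choices, rises chosen at 4 h had medians of 1.44 at 24 h and 2.57 at 8 h, falls chosen at 4 h -1.21 and -2.11, rises chosen at 12 h 2.43 and 2.74, and falls chosen at 12 h -1.43 and -2.18. The block follows the rule of the comparison. Of 18 pairs of arrays with the same number, 14 had correlated deviations over 0.1 and 2 were below 0 (-0.073 to 0.353), so the numbers are not shown to pair the samples. Without the replicate block there were 210 interaction calls and 35 fading falls.

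Without 1 array the interaction calls ranged from 79 to 468 (35 to 258 above 0, 41 to 210 below), calls at 24 h from 1086 to 1720 and at 8 h from 2189 to 4354. Fading rises ranged from 36 to 175, fading falls from 14 to 157, growing rises from 17 to 114, growing falls from 12 to 46, held rises from 376 to 518 and held falls from 318 to 515. Without 1 replicate number, interaction calls ranged from 0 to 190 (0 to 114 above 0, 0 to 76 below), calls at 24 h from 632 to 1387 and at 8 h from 1505 to 2532. Fading rises then ranged from 0 to 62, fading falls from 0 to 68, growing rises from 0 to 55, growing falls from 0 to 27, held rises from 240 to 423 and held falls from 147 to 391. Medians of probe sets chosen at 4 h ranged from 0.59 to 0.67 at 24 h and 1.26 to 1.38 at 8 h for rises, and from -0.77 to -0.56 and -1.30 to -1.26 for falls. Those chosen at 12 h ranged from 1.04 to 1.17 and 1.42 to 1.52 for rises, and from -0.95 to -0.81 and -1.42 to -1.39 for falls. The cause of these differences was not tested.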

Other observations

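Of the 257 probe sets with a called interaction, 140 had no single gene name, and the largest of their interactions were -3.24 ± 0.406 and 3.04 ± 0.31 (log2, SE). Of 5 measured genes in the list of the mitochondrial stress response, AT2G41730 and NDB2 were called lower on IAA at both times, AT2G04070 at 24 h and AT2G04050 at 8 h. Over all probe sets 3.88% were called lower at 24 h and 7.17% at 8 h, and no test sets this list apart. The median effect of the 5 was -1.52 at 24 h and -1.10 at 8 h, against -0.02 and -0.01 for all probe sets. These medians belong to different genes, AT2G04070 and NDB2, and do not show a fall that grew. The median interaction was 0.197, with 0.64 for AT2G41730, 0.30 for AT2G04050, 0.20 for NDB2, -0.57 for PUB23 and -1.54 for AT2G04070, none called. IAA 24 h replicate 2 of AT2G04070 had 7.495, against 6.294 and 6.256 in replicates 1 and 3. AT2G04070 was at -1.52 ± 0.394 at 24 h and 0.02 ± 0.394 at 8 h, with an interaction of -1.54 ± 0.557 (limma adjusted p = 0.308). The root hair expansin EXPA7 was at -0.44 ± 0.191 at 24 h and 0.15 ± 0.191 at 8 h (-0.60 ± 0.271, adjusted p = 0.46), and the Casparian strip receptor gene GSO1 was called lower at both times (-0.67 and -0.44).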
